A study of Mus musculus with 12 samples.

Results

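Cardiac mesoderm cells that carried a Foxa2 lineage label were compared with endoderm of the same embryonic stage. The comparison set 3 libraries against 3, which are 6 of the 12 libraries sequenced in the study. The groups were taken from the sample titles, which read cardiac mesoderm, Foxa2Cre:YFP+, and endoderm, each with replicates 1, 2 and 3. All libraries of both groups carried the same alleles, a Cre recombinase under the control of Foxa2 and a yellow fluorescent protein (YFP) gene at Rosa26 that Cre switches on (mouse line Foxa2Cre:Rosa26-YFP), and came from embryos at E7.25. The cell type label of the YFP-positive group is embryonic ventricular cardiac mesoderm, and that of the second group is embryonic endoderm (EPCAM+). The labels name EPCAM for the endoderm only, do not say which surface proteins marked the cardiac mesoderm, and do not say whether endoderm cells were also selected for YFP. The reporter records that a cell or its ancestor expressed Foxa2, and not that Foxa2 was on at collection. Whether embryos were pooled, and whether the replicates are separate litters, is not stated either, so p-values measure the spread between these samples, which may be technical. RNA was purified with the Agilent Absolutely RNA nanoprep kit and amplified with NuGEN low-input systems.

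Foxa2 encodes a forkhead pioneer factor that is required for endoderm, node and notochord, and a transient Foxa2-positive population of the primitive streak is known to give rise to ventricular heart muscle. During gastrulation, cells of the streak lose epithelial junctions and spread as mesenchyme to form mesoderm, while future gut cells enter the outer epithelial layer, where they mix with visceral endoderm. Visceral endoderm is a polarized epithelium that takes up maternal nutrients by endocytosis, makes plasma lipoproteins and, at its anterior side, secretes inhibitors of Wnt, Nodal and BMP signals. Node cells carry motile cilia that set the left-right axis.

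Between the 6 libraries, gene counts totalled 5004024, 5629572 and 5591313 in YFP-positive cardiac mesoderm and 5976296, 7267616 and 7888631 in endoderm, and at least 1 count was found for 13671 to 14677 and 18547 to 18618 genes. The YFP-positive libraries differed more among themselves, with a biological coefficient of variation of 0.812 against 0.404 among the endoderm libraries. Of the genes that reached 100 counts in some library, 9.30% had at most 3 counts in another library of the group in YFP-positive cardiac mesoderm and 0.518% in endoderm. Levels are given as CPM, the counts scaled to the size of each library with trimmed-mean (TMM) factors. They stand in the order of replicates 1, 2 and 3, with the YFP-positive libraries first, and a fold is the ratio of the group means. In bulk samples such as these, fewer cells of a type and less RNA per cell cannot be told apart.

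Foxa2 (ENSMUSG00000037025.5, GRCm38 chromosome 2, 148042877 to 148046969, minus strand) checked the labels first. It measured 0.428, 0 and 6.03 CPM in YFP-positive cardiac mesoderm and 53.1, 59.5 and 63.1 CPM in endoderm. All endoderm libraries were therefore above all YFP-positive ones, yet the edgeR test did not call the difference (adjusted p = 0.0782, from 5.43e-05 to 0.24 over the alternatives, in which DESeq2 and limma voom called it). Epcam (ENSMUSG00000045394.8, chromosome 17, 87635979 to 87651129, plus strand), the adhesion protein that the endoderm was sorted on, measured 11.6, 17.4 and 40.1 CPM against 243, 206 and 220.2 CPM in endoderm, which checks the sort and is no finding.

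Marker lists for 11 cell types checked the labelled types further, as the summed CPM of each list. The 14 cardiac mesoderm markers summed to 2625, 2869 and 2367 CPM in the YFP-positive libraries and 266, 181 and 253 CPM in endoderm. The 15 definitive and anterior endoderm markers summed to 283, 139 and 459 CPM against 2660.1, 2281 and 2223 CPM. They include Epcam, on which the endoderm was sorted, so that part of this difference follows from the sort. The cardiac mesoderm markers include Kdr and Pdgfra, and the labels do not say whether the cells were sorted on either. The labelled endoderm also held markers of other types, namely visceral endoderm (18 genes, 5819, 1947 and 3356 CPM), node and notochord (12 genes, 961 to 1487 CPM) and epiblast (15 genes, 2193 to 2256 CPM). In the YFP-positive libraries the same lists, in this order, summed to 86.1 to 159, 305 to 486 and 968 to 1298 CPM. Visceral endoderm markers were thus highest in endoderm replicate 1 and lowest in replicate 2, and trophoblast markers (13 genes) reached 119 CPM in endoderm replicate 3 against 31.3 and 38.9 CPM in the other two. Among the YFP-positive libraries, replicate 2 stood apart in the 12 primitive blood markers (292 CPM against 24.8 and 46.7) and the 14 endothelial ones (335 CPM against 88.2 and 105). Globins of both lists and Ptprc, Cldn5 and Emcn had 0 or 1 count in each of the 6 libraries. Replicate 3 had the highest sum of endoderm markers in its group. Whether cells of these other types were present, and what they contributed to the results, was not tested.

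**Figure D1:**
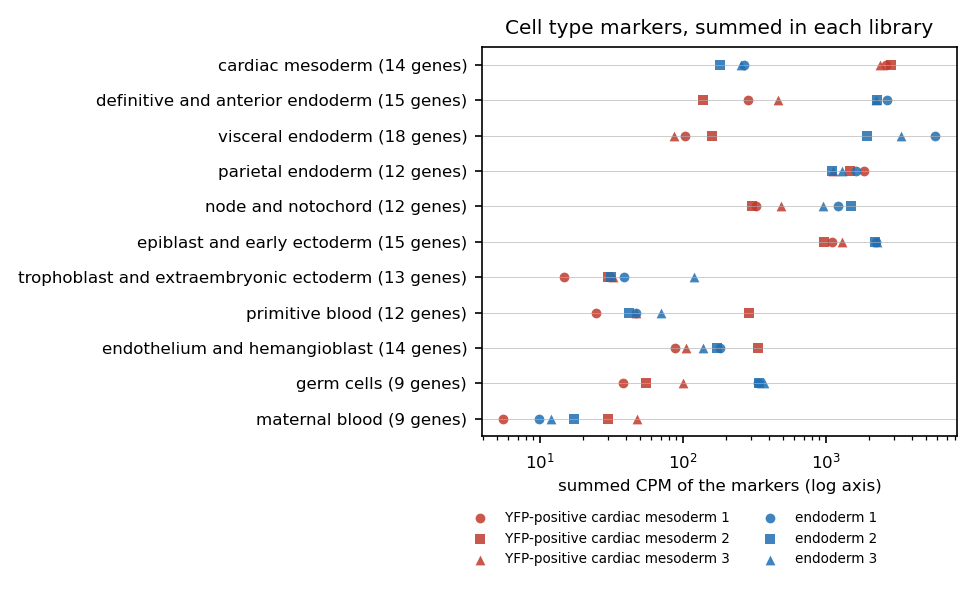
Summed CPM (log axis) of the genes of each of 11 cell type marker lists, with the number of genes per list, in the 3 YFP-positive cardiac mesoderm libraries (red) and the 3 endoderm libraries (blue). Point shapes mark replicates 1, 2 and 3. The cardiac mesoderm markers lie to the right in red and the definitive endoderm, visceral endoderm, node and epiblast markers lie to the right in blue.

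The edgeR quasi-likelihood test on the 6 libraries called 1063 of 12845 genes tested (8.28%) at an adjusted p under 0.05. Of the genes tested, 336 (2.62%) were higher in YFP-positive cardiac mesoderm and 727 (5.66%) lower. The genes that were higher were mostly abundant and moderately changed, with a median level of 264 CPM in the higher group and a median log2 fold change of 1.39. The genes that were lower had a median of 13.6 CPM in endoderm and a median log2 change of 6.75 in size, and 225 of them had no count in any YFP-positive library. With those genes set at the bound that 3 counts per library allow, the median size was 4.86. A gene that is silent in 1 group passes the filter on low counts only through the other group and had to differ, so counts of such genes are descriptions. The 2 groups did not overlap for any of the 1063 genes, as for 30.9% of all genes tested.

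How many genes were called depended on the libraries. A fit of all 12 libraries, in which the 4 cell types share 1 estimate of the spread, called 218 of 14170 genes (1.54%). Here 135 (0.953%) were higher and 83 (0.586%) lower, so that the share of calls that were higher was 61.9% in place of 31.6%. With the replicate number as a block in the fit of 6 libraries, 318 genes were called (2.48%), 146 higher (1.14%) and 172 lower (1.34%). Without endoderm replicate 1, 2 or 3 the count fell to 99, 119 or 109, and without YFP-positive replicate 1, 2 or 3 it was 904, 942 or 985. DESeq2 called 1062 of the 1063 genes, 82 were called in each of the 6 edgeR fits that left out a library, and 69 of those also in the fit of all 12. The genes named here come first from these 69, and other genes are given with the fits in which their calls ended and the highest adjusted p among the fits that left out a library. Counts for a gene list are given for the fit of 6 libraries, followed by those for all 12 libraries, for the block, and for the members called in every fit that left out 1 library. They are to be read beside the shares over all genes tested, which in the fit of 6 libraries were 2.62% higher and 5.66% lower. The shares for all 12 libraries and for the block are those given above. The count of called members moved by over 1.5 times for 25 of the 28 lists without endoderm replicate 1, 2 or 3, and for 2 to 4 lists without a YFP-positive library.

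**Figure D2:**
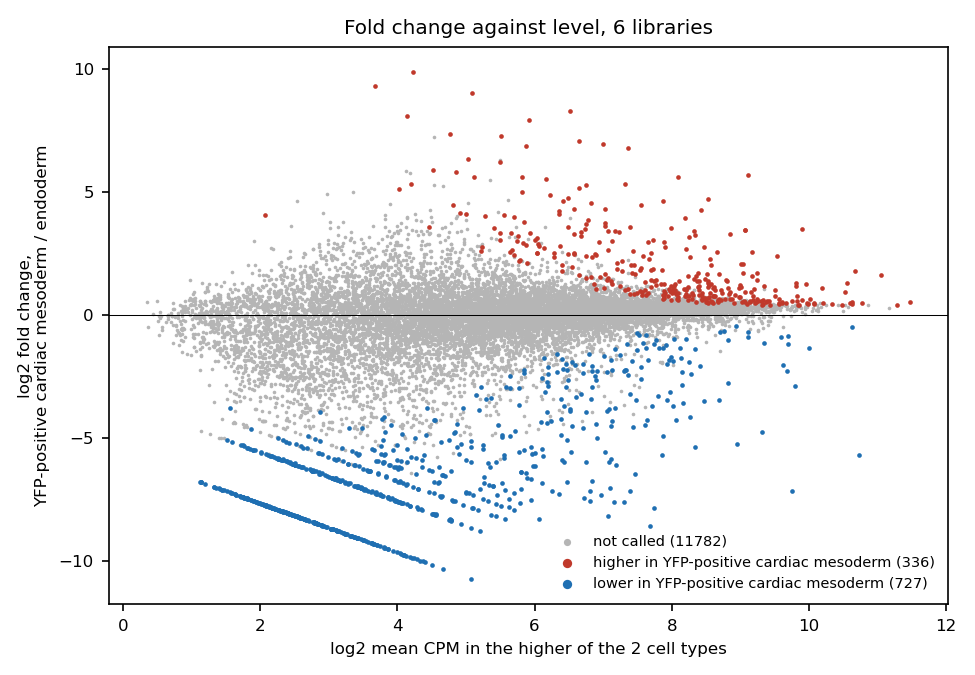
Log2 fold change of each of the 12845 genes tested (vertical axis, above 0 is higher in YFP-positive cardiac mesoderm) against the log2 of its mean CPM in the group where it is higher (horizontal axis). Red points are the 336 genes called higher, blue points the 727 called lower, and the slanted blue lines at the lower left are genes with no or few counts in the YFP-positive libraries, whose fitted fold depends on the prior count of the model.

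Toward YFP-positive cardiac mesoderm, the 12 genes with the largest differences among the 69 are given first. Tnc encodes tenascin C, an extracellular matrix protein of migrating mesenchyme, and measured 113, 116 and 44.3 CPM against 0.322, 0 and 0.482 CPM in endoderm, with a log2 fold change of 8.30 ± 0.95 (SE) and an edgeR adjusted p of 0.00506. Vcan, the matrix proteoglycan versican that is needed for the early heart, measured 818, 962 and 1093 CPM against 74.2, 102 and 78.3 CPM in endoderm (log2 fold change 3.50 ± 0.18 (SE), edgeR adjusted p = 0.000342). Unc5c, a netrin receptor, measured 171, 205 and 115 CPM against 2.58, 0.525 and 1.33 CPM in endoderm (111-fold higher, edgeR adjusted p = 0.00194). For each of these genes the lowest YFP-positive library lay many times above the highest endoderm library. Pcsk5, a convertase that cleaves growth factor precursors, measured 336, 273 and 207 CPM against 5, 3.02 and 8.68 CPM in endoderm (48.8-fold higher, edgeR adjusted p = 0.00107). Vldlr, a receptor for lipoproteins and reelin, measured 159, 312 and 93.1 CPM against 5.16, 11.02 and 9.16 CPM in endoderm (22.2-fold higher, edgeR adjusted p = 0.00588), so that replicate 2 was the highest and replicate 3 the lowest. Pcdh19, a protocadherin, measured 299.8, 257 and 145 CPM against 5.32, 11.1 and 11.4 CPM in endoderm (25.1-fold higher, edgeR adjusted p = 0.00228), also lowest in replicate 3. Pmp22, a small membrane protein best known from myelin, measured 359.7, 262 and 255 CPM against 27.1, 13.1 and 16.9 CPM in endoderm (15.4-fold higher, edgeR adjusted p = 0.0013). Rasgrp3, an activator of Ras and Rap, measured 611, 549 and 451 CPM against 57.6, 58.6 and 29.8 CPM in endoderm (11.03-fold higher, edgeR adjusted p = 0.0013). Klhl6, an adaptor of a ubiquitin ligase, measured 115, 106 and 117 CPM against 7.42, 3.8 and 3.01 CPM in endoderm (23.8-fold higher, edgeR adjusted p = 0.00332). These 2 genes differed little among the YFP-positive libraries. Kdr, Pdgfra and Phlda2 complete the 12 genes and are described with their families. Tnc was not called under the block with all 12 libraries.

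The genes with the largest differences toward endoderm among the 69 were of several kinds. Cubn encodes cubilin, the uptake receptor of visceral endoderm, and measured 6.64, 3.37 and 8.1 CPM against 1518, 313 and 754 CPM in endoderm (log2 fold change -7.16 ± 0.68 (SE), edgeR adjusted p = 0.00246). Afp, alpha-fetoprotein, measured 0.642, 0.187 and 0.942 CPM against 186, 42.4 and 88.1 CPM in endoderm (log2 fold change -7.44 ± 0.86 (SE), edgeR adjusted p = 0.00506). Both were highest in endoderm replicate 1 and lowest in replicate 2, the order of the summed visceral endoderm markers. Irs4, an adaptor of insulin and IGF receptors, measured 0.428, 0.187 and 0.942 CPM against 153, 166 and 297 CPM in endoderm (395-fold lower, edgeR adjusted p = 0.000588), and was highest in endoderm replicate 3. Tmprss2, a membrane serine protease of epithelia, measured 0, 0.187 and 1.13 CPM against 158, 104 and 142 CPM in endoderm (306-fold lower, edgeR adjusted p = 0.00327). Mtus1, which encodes microtubule-associated proteins, measured 0.214, 0.562 and 1.88 CPM against 261, 176 and 207 CPM in endoderm (242-fold lower, edgeR adjusted p = 0.00107). These 3 genes were near the limit of detection in YFP-positive replicates 1 and 2 and slightly above it in replicate 3. Col2a1, a fibrillar collagen of notochord and cartilage, measured 0.214, 0.187 and 0.565 CPM against 44.02, 45.9 and 51.8 CPM in endoderm (147-fold lower, edgeR adjusted p = 0.00506). Pdpn, the mucin-like surface protein podoplanin, measured 0.642, 0.187 and 1.51 CPM against 104, 66.8 and 95.2 CPM in endoderm (114-fold lower, edgeR adjusted p = 0.00463). Both were near the limit of detection in every YFP-positive library. Chrd, Trh, Foxj1 and Pkd1l1 belong with these genes and follow below. Cubn and Afp were not called with limma voom, and Col2a1 and Pdpn under the block with all 12 libraries.

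**Figure D3:**
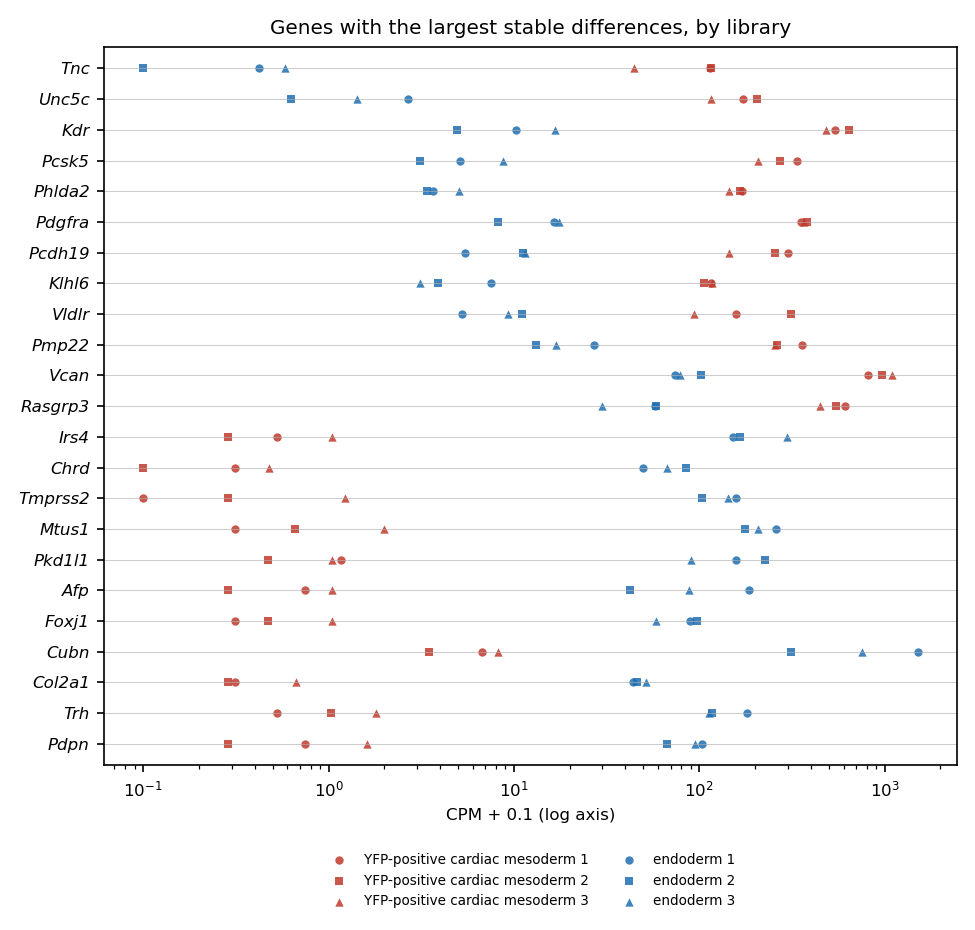
CPM plus 0.1 (log axis) of 12 genes with the largest stable differences toward YFP-positive cardiac mesoderm and 11 toward endoderm, in each of the 6 libraries, with YFP-positive cardiac mesoderm in red, endoderm in blue and the shapes marking replicates 1, 2 and 3. The upper 12 genes lie to the right in red and the lower 11 to the right in blue, with no overlap for any gene.

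The transcription factors of cardiac and lateral mesoderm that were called were all higher in the YFP-positive cells. Of 32 listed genes 25 were tested, and 11 of these were higher and 0 lower (7 and 0 in the fit of all 12 libraries, 8 and 0 under the block, 3 and 0 in every fit without 1 library), with a median log2 fold change of 2.65 where the median over all genes tested was 0.04. The list shares 11 genes with the 14 cardiac mesoderm markers, so it is not separate from the check of the labels. Tbx20, a T-box factor of the first heart cells, measured 575, 682 and 350.2 CPM against 49.7, 51.8 and 44.6 CPM in endoderm (log2 fold change 3.46 ± 0.26 (SE), edgeR adjusted p = 0.00103). Tbx3, which later marks the conduction system, measured 301, 484 and 433 CPM against 80.8, 46.2 and 77.5 CPM in endoderm (log2 fold change 2.57 ± 0.28 (SE), edgeR adjusted p = 0.00381). Tbx5, the factor of the first heart field, measured 20.8, 87.8 and 72.3 CPM against 0.322, 0.262 and 0.121 CPM in endoderm (log2 fold change 7.91 ± 0.93 (SE), edgeR adjusted p = 0.00524), and its replicate 1 was the lowest of the YFP-positive libraries. Snai1, the repressor of E-cadherin that drives delamination from the streak, measured 49.5, 66.4 and 139 CPM against 3.06, 3.67 and 3.49 CPM in endoderm (log2 fold change 4.63 ± 0.58 (SE), edgeR adjusted p = 0.00646), with replicate 3 the highest. Tbx20 and Tbx3 were called in all 15 alternatives. Not all heart regulators were called. Mesp1, the earliest cardiac mesoderm factor, measured 11.8, 20.4 and 55.01 CPM against 1.13, 4.2 and 0.241 CPM in endoderm without being called (edgeR adjusted p = 0.099). Nkx2-5, the homeobox factor of committed cardiomyocytes, measured 1.28, 1.5 and 3.2 CPM against 22.3, 0.918 and 25.5 CPM in endoderm (edgeR adjusted p = 0.226), so that 2 endoderm libraries were above all YFP-positive ones. Mesp1 and Nkx2-5 were picked after their values were seen. Snai1 lost its call without endoderm replicate 1 or 3 (edgeR adjusted p up to 0.0555). Tbx5 and Snai1 were not called in the fit of all 12 libraries.

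Gata4, a zinc finger factor shared by heart and endoderm, was the only member of the endoderm transcription factor list that was higher in the YFP-positive cells. It measured 348, 311 and 440.5 CPM against 145, 94.6 and 104 CPM in endoderm (log2 fold change 1.68 ± 0.22 (SE), edgeR adjusted p = 0.00736). Of 22 tested genes among 30 listed, 6 were lower (3 in the fit of all 12 libraries, 4 under the block, 2 in every fit without 1 library), and the median log2 fold change was -2.49. The list shares 7 genes with the 15 definitive and anterior endoderm markers. Prdm1, the zinc finger repressor known as Blimp1 that is made by visceral endoderm and germ cell precursors, measured 2.57, 0.374 and 3.01 CPM against 178, 171 and 182 CPM in endoderm (log2 fold change -6.47 ± 0.62 (SE), edgeR adjusted p = 0.00248). It was below 5 CPM in every YFP-positive library and was called in all 15 alternatives. Hnf4a, the nuclear receptor that drives apolipoprotein genes, measured 0.642, 0 and 1.51 CPM against 199, 78.7 and 149 CPM in endoderm (198-fold lower, edgeR adjusted p = 0.00523). Foxa1, the close relative of Foxa2, measured 0, 0 and 0.754 CPM against 63.7, 50.8 and 50.9 CPM in endoderm (219-fold lower, edgeR adjusted p = 0.0157). Foxa1 thus had no count in YFP-positive replicates 1 and 2. A pair of factors that streak, mesoderm and endoderm share were not called, Eomes at 503, 349 and 461 CPM against 278, 311 and 287 CPM in endoderm (edgeR adjusted p = 0.065) and Lhx1 at 562, 396 and 702 CPM against 403, 445 and 431 CPM in endoderm (edgeR adjusted p = 0.345), which were picked after their values were seen. Gata4 lost its call without endoderm replicate 2 or 3, Hnf4a without endoderm replicate 1, and Foxa1 without each of the endoderm replicates in turn (edgeR adjusted p up to 0.0595, 0.0536 and 0.111, in that order). Hnf4a was not called with limma voom, and Foxa1 in the fit of all 12 libraries.

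Genes of the primitive streak and nascent mesoderm were divided. Of 20 tested genes among 25 listed, 4 were higher and 2 lower (2 and 1, then 4 and 0, then 1 and 0), with a median of 0.39. The 4 that were higher were Phlda2, Rspo3, Lef1 and Aplnr. Aplnr, the apelin receptor of migrating mesoderm, measured 433, 245 and 330.5 CPM against 148, 153 and 84.4 CPM in endoderm (2.61-fold higher, edgeR adjusted p = 0.0311), while its ligand Apln was lower at 3, 1.5 and 13.9 CPM against 79.01, 126 and 70.5 CPM in endoderm (14.95-fold lower, edgeR adjusted p = 0.0325). Receptor and ligand were therefore each higher in a different population. Lef1, the partner of beta-catenin that is active in streak mesoderm, measured 348, 395 and 589.7 CPM against 105, 223 and 162 CPM in endoderm (2.72-fold higher, edgeR adjusted p = 0.0313). Cited1, a transcriptional coactivator, measured 0.857, 2.81 and 0.754 CPM against 65.6, 28.2 and 44.2 CPM in endoderm (31.2-fold lower, edgeR adjusted p = 0.0203). Aplnr lost its call without each of the endoderm replicates in turn or YFP-positive replicate 1 or 3, Apln without each of the endoderm replicates in turn or YFP-positive replicate 1, Lef1 without each of the endoderm replicates in turn or YFP-positive replicate 2 or 3, and Cited1 without each of the endoderm replicates in turn (edgeR adjusted p up to 0.132, 0.132, 0.131 and 0.132, in that order). Aplnr and Lef1 were not called in the fit of all 12 libraries, Apln in the fit of all 12 libraries, with limma voom or under the replicate block (edgeR adjusted p = 0.0627), and Cited1 with limma voom or under the replicate block (edgeR adjusted p = 0.0659).

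The epithelial genes that were called were all lower in the YFP-positive cells, and the mesenchymal genes that were called were all higher. Of 41 tested epithelial adhesion and polarity genes among 48 listed, 20 were lower and 0 higher (3 and 0, then 12 and 0, then 1 and 0), with a median log2 fold change of -3.00, or -2.67 with the 3 genes that had no YFP-positive count at their bound. Epcam, on which the endoderm was sorted, is among the 20. Because EPCAM is itself an epithelial adhesion protein, the sort may also bear on the other members. What part the sort had in these counts was not tested. Cdh1, E-cadherin, measured 5.57, 3.93 and 60.3 CPM against 732, 616 and 564 CPM in endoderm (27.4-fold lower, edgeR adjusted p = 0.0299), and replicate 3 held most of the YFP-positive signal. F11r, the junctional adhesion molecule A, measured 18.8, 34.3 and 38.4 CPM against 185, 133 and 176 CPM in endoderm (log2 fold change -2.43 ± 0.34 (SE), edgeR adjusted p = 0.0102). Myo5c, a myosin of epithelial secretory transport, had 1, 0 and 1 counts in the YFP-positive libraries and 37.2, 38.3 and 53.98 CPM in endoderm, and was lower by a ratio of 331 (95% counting interval 91.6 to 2731) (edgeR adjusted p = 0.00604). Claudins, which seal tight junctions, were represented by Cldn6 at 6.64, 2.99 and 21.5 CPM against 243, 184 and 171 CPM in endoderm (19.2-fold lower, edgeR adjusted p = 0.0156), with replicate 3 again the highest YFP-positive library. Cdh1 and Cldn6 lie outside the naming rule for the list and were picked for their role after their values were seen. Cdh1, Cldn6 and Epcam lost their calls without each of the endoderm replicates in turn, and F11r and Myo5c without endoderm replicate 1 or 3 (edgeR adjusted p up to 0.131, 0.0905, 0.0653, 0.0833 and 0.0652, in that order). Cdh1, Cldn6 and Epcam were not called in the fit of all 12 libraries.

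The mesenchymal transition and adhesion list had 12 of its 33 tested members (45 listed) higher and 0 lower (9 and 0, then 11 and 0, then 8 and 0), with a median of 0.83. Pdgfra is among the 12 and among the 8, and the labels do not say whether the cells were sorted on it. Fn1, fibronectin, the matrix on which mesoderm migrates, measured 2099.98, 2104 and 2182 CPM against 738, 710.1 and 586 CPM in endoderm (log2 fold change 1.65 ± 0.10 (SE), edgeR adjusted p = 0.000588). Cdh11, the cadherin of mesenchyme, measured 345, 326 and 393 CPM against 45.1, 56.8 and 53.98 CPM in endoderm (log2 fold change 2.77 ± 0.18 (SE), edgeR adjusted p = 0.000588). Zeb2, a zinc finger repressor of epithelial genes, measured 643, 684 and 889 CPM against 132, 167 and 115 CPM in endoderm (log2 fold change 2.42 ± 0.19 (SE), edgeR adjusted p = 0.00107). In these 3 genes the YFP-positive libraries lay close together, and their calls held in all 15 alternatives. Cdh2, N-cadherin, differed less, at 415, 459 and 404 CPM against 218, 256 and 214 CPM in endoderm (log2 fold change 0.89 ± 0.13 (SE), edgeR adjusted p = 0.0126), and was picked beside Cdh1 after its values were seen. Cdh2 lost its call without each of the endoderm replicates in turn (edgeR adjusted p up to 0.095). Cdh2 was not called in the fit of all 12 libraries.

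Among 16 tested keratin and apical cytoskeleton genes (25 listed), 6 were lower and 1 higher (1 and 1, then 3 and 1, then 1 and 0). Ezrin and moesin, related proteins that tie the membrane to actin, moved in opposite directions. Ezr measured 28.7, 28.3 and 10.2 CPM against 291, 211 and 229 CPM in endoderm (log2 fold change -3.44 ± 0.42 (SE), edgeR adjusted p = 0.00572). Msn measured 474, 567 and 495 CPM against 275, 302 and 343 CPM in endoderm (log2 fold change 0.74 ± 0.13 (SE), edgeR adjusted p = 0.0233). Krt7, a keratin of simple epithelia, had 1, 0 and 0 counts in the YFP-positive libraries and 10.3, 16.5 and 18.6 CPM in endoderm, and was lower by a ratio of 232 (95% counting interval 41.6 to 9158) (edgeR adjusted p = 0.025). Basement membrane and laminin genes had 3 of 26 tested (30 listed) lower and 1 higher (1 and 1, then 2 and 0, then 0 and 0). The 1 higher member is near the share of all genes tested that were higher, 2.62%. Lama5, the laminin chain of mature epithelial basement membranes, measured 32.8, 11.2 and 4.33 CPM against 221, 200.01 and 209 CPM in endoderm (log2 fold change -3.71 ± 0.66 (SE), edgeR adjusted p = 0.022), while Hspg2, the proteoglycan perlecan, measured 367, 224 and 279 CPM against 130.3, 169 and 122 CPM in endoderm (log2 fold change 1.04 ± 0.23 (SE), edgeR adjusted p = 0.0323). Msn, Krt7 and Lama5 lost their calls without each of the endoderm replicates in turn, and Hspg2 without each of the endoderm replicates in turn or YFP-positive replicate 1 or 3 (edgeR adjusted p up to 0.13, 0.127, 0.107 and 0.133, in that order). Krt7 and Hspg2 were not called in the fit of all 12 libraries or under the replicate block (edgeR adjusted p = 0.0954 and 0.0881), and Lama5 under the block with all 12 libraries.

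The plasma protein and lipid transport genes of visceral endoderm that were called were all lower in the YFP-positive cells. Of 32 tested genes among 44 listed, 18 were lower and 0 higher (8 and 0, then 12 and 0, then 4 and 0), with a median of -5.33, or -4.44 with 3 genes at their bound. Apob, the core protein of lipoproteins, measured 8.99, 61.4 and 29.4 CPM against 2559, 1048 and 1504 CPM in endoderm (log2 fold change -5.67 ± 0.69 (SE), edgeR adjusted p = 0.00586). Ttr, the thyroid hormone carrier transthyretin, measured 1.07, 0.187 and 1.88 CPM against 169, 73.3 and 102 CPM in endoderm (109.6-fold lower, edgeR adjusted p = 0.00506). Apob was thus also present in YFP-positive replicate 2, where its level was a small part of that in any endoderm library. Both followed the order of the visceral endoderm markers over the endoderm replicates, highest in replicate 1 and lowest in replicate 2. The summed markers of that tissue were 86.1 to 159 CPM in the YFP-positive libraries, with 16 of the 18 markers also in this list, and their part in these results was not tested. Most of the sum in YFP-positive replicate 1 came from Ihh alone, which is given with the Hedgehog genes. Apob made up 61.4 CPM of the sum in replicate 2. Ttr lost its call without endoderm replicate 1 (edgeR adjusted p up to 0.0516). Apob was not called with limma voom.

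The endocytic and lysosomal list had 7 of 39 tested members (40 listed) lower and 0 higher (3 and 0, then 5 and 0, then 2 and 0), with a median of -0.80. Beside Cubn, Dab2, the adaptor that links such receptors to clathrin, measured 213, 213 and 150.3 CPM against 1110.2, 519 and 727 CPM in endoderm (log2 fold change -2.03 ± 0.28 (SE), edgeR adjusted p = 0.00971). Ctsc, a lysosomal peptidase, measured 80.5, 78.1 and 75.4 CPM against 333, 222 and 207 CPM in endoderm (log2 fold change -1.70 ± 0.23 (SE), edgeR adjusted p = 0.00878). Ctsh, another, measured 0.642, 5.62 and 1.88 CPM against 192, 66.8 and 131 CPM in endoderm (47.9-fold lower, edgeR adjusted p = 0.0118). Dab2 and Ctsc stayed well detected in every YFP-positive library, unlike Cubn. Of 36 tested solute carriers (48 listed), 7 were lower and 1 higher (4 and 1, then 5 and 1, then 1 and 0). Slc2a3, the glucose transporter GLUT3, measured 185, 218 and 112 CPM against 1031, 712 and 724 CPM in endoderm (log2 fold change -2.26 ± 0.27 (SE), edgeR adjusted p = 0.00524). Slc7a8, an amino acid exchanger, measured 0, 0.562 and 1.7 CPM against 156, 95.7 and 122 CPM in endoderm (166-fold lower, edgeR adjusted p = 0.00527). Slco4c1, an organic anion carrier, measured 0.428, 0.374 and 0.942 CPM against 92.9, 41.1 and 50.97 CPM in endoderm (106-fold lower, edgeR adjusted p = 0.00506). The carrier that was higher was Slc38a4, an amino acid transporter encoded by an imprinted gene, at 376, 245 and 285 CPM against 72.6, 129 and 98.9 CPM in endoderm (log2 fold change 1.59 ± 0.26 (SE), edgeR adjusted p = 0.0172). Ctsc, Slc7a8 and Slco4c1 lost their calls without endoderm replicate 1, and Ctsh and Slc38a4 without endoderm replicate 1 or 3 (edgeR adjusted p up to 0.056, 0.0555, 0.0596, 0.0881 and 0.106, in that order). Dab2 was not called with limma voom, Ctsc with limma voom or under the block with all 12 libraries, and Ctsh in the fit of all 12 libraries or with limma voom.

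Among signals and inhibitors of the anterior endoderm and the organizer, more were called lower than higher in the YFP-positive cells, with 11 of 21 tested genes (26 listed) lower and 2 higher (4 and 0, then 6 and 0, then 3 and 0) and a median of -3.05. This list shares 6 genes with the 15 definitive and anterior endoderm markers. Fzd5, a Wnt receptor of endoderm and anterior tissue, measured 12.2, 9.73 and 17.5 CPM against 449.6, 495 and 537 CPM in endoderm (log2 fold change -5.23 ± 0.25 (SE), edgeR adjusted p = 0.000342), which with that of Vcan is the smallest adjusted p of the genes named here. Trh, the thyrotropin-releasing hormone precursor and an early marker of definitive endoderm, measured 0.428, 0.936 and 1.7 CPM against 179.8, 118 and 113 CPM in endoderm (log2 fold change -7.02 ± 0.57 (SE), edgeR adjusted p = 0.00113). Chrd, the BMP inhibitor chordin made by the node, had 1, 0 and 2 counts in the YFP-positive libraries and 49.8, 84.5 and 66.999 CPM in endoderm, and was lower by a ratio of 343 (95% counting interval 117 to 1662) (edgeR adjusted p = 0.00417). These 3 genes were called in all 15 alternatives. Dkk1, a secreted Wnt inhibitor, measured 13.1, 1.87 and 11.7 CPM against 214, 165 and 206 CPM in endoderm (21.98-fold lower, edgeR adjusted p = 0.0109). Cer1, which binds Nodal, BMP and Wnt, measured 32.1, 10.7 and 68.96 CPM against 484, 391.6 and 362 CPM in endoderm (11.1-fold lower, edgeR adjusted p = 0.0185). The 2 genes that were higher were Lefty2 and Tdgf1. Lefty2, the Nodal inhibitor of mesoderm, measured 92.1, 58.8 and 136 CPM against 9.19, 24.9 and 16.6 CPM in endoderm (5.66-fold higher, edgeR adjusted p = 0.0311). Tdgf1, the Nodal coreceptor Cripto, measured 387, 335 and 374 CPM against 272, 242 and 246 CPM in endoderm (log2 fold change 0.53 ± 0.13 (SE), edgeR adjusted p = 0.0444). Lefty1, the relative of Lefty2 made by anterior visceral endoderm, had no count in the YFP-positive libraries and 3.39, 5.25 and 12.1 CPM in endoderm (at least 11.7-fold lower, edgeR adjusted p = 0.0323), and was picked beside Lefty2 after its values were seen. Dkk1 and Cer1 lost their calls without each of the endoderm replicates in turn, Lefty2 without each of the endoderm replicates in turn or YFP-positive replicate 3, Tdgf1 without each of the endoderm replicates in turn or YFP-positive replicate 1 or 3, and Lefty1 without each of the endoderm replicates in turn or each of the YFP-positive replicates in turn (edgeR adjusted p up to 0.0712, 0.0962, 0.132, 0.203 and 0.132, in that order). Dkk1 was not called in the fit of all 12 libraries, Lefty2 in the fit of all 12 libraries or under the replicate block (edgeR adjusted p = 0.0854), Tdgf1 in the fit of all 12 libraries, with RLE scaling, without the filter on low counts, under the filter of 5 CPM, with limma voom or under the replicate block (edgeR adjusted p = 0.121), and Lefty1 in the fit of all 12 libraries, without the filter on low counts, under the filter of 5 CPM or under the replicate block (edgeR adjusted p = 0.144).

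The motile cilium and axoneme genes that were called were all lower in the YFP-positive cells. Of 55 listed genes 43 were tested, of which 26 were lower and 0 higher (4 and 0, then 5 and 0, then 2 and 0). The median log2 fold change was -6.83, or -3.60 with the 10 genes that had no YFP-positive count at their bound. Foxj1, the master regulator of motile cilia, measured 0.214, 0.374 and 0.942 CPM against 89.5, 97.2 and 58.7 CPM in endoderm (log2 fold change -7.25 ± 0.71 (SE), edgeR adjusted p = 0.00279). Pkd1l1, part of the flow sensor of the node, measured 1.07, 0.374 and 0.942 CPM against 157, 227 and 90.4 CPM in endoderm (log2 fold change -7.61 ± 0.59 (SE), edgeR adjusted p = 0.00107). Foxj1 was called in all 15 alternatives. Both were lowest, among the endoderm libraries, in replicate 3. Rsph4a, a protein of the radial spoke, measured 0.428, 0.187 and 1.13 CPM against 77.9, 89.97 and 39.9 CPM in endoderm (119-fold lower, edgeR adjusted p = 0.00586). Cfap44, an axonemal protein, measured 0, 0.187 and 0.754 CPM against 79.7, 78.4 and 26.6 CPM in endoderm (196-fold lower, edgeR adjusted p = 0.0119). Rfx3, a factor that acts on cilia of all kinds, changed far less, at 246, 281 and 356 CPM against 619, 762 and 559.7 CPM in endoderm (log2 fold change -1.14 ± 0.18 (SE), edgeR adjusted p = 0.0145). The dynein chains and assembly factors were among the rarer genes, as with Dnah5 at 0.214, 0 and 0.565 CPM against 29.2, 35.3 and 10.6 CPM in endoderm (96.3-fold lower, edgeR adjusted p = 0.0296). Markers of the node moved with these genes, with 7 of 10 tested lower and 0 higher, and 5 of the 12 markers, Foxj1, Pkd1l1, Noto, Rfx3 and Cfap126, are also in the cilium list. Whether the endoderm libraries held node cells, and what part such cells had in the result, was not tested. Rfx3 and Dnah5 were picked after their values were seen. Rsph4a and Cfap44 lost their calls without endoderm replicate 1 or 2, and Rfx3 and Dnah5 without each of the endoderm replicates in turn (edgeR adjusted p up to 0.0555, 0.0957, 0.0836 and 0.132, in that order). Pkd1l1 and Rfx3 were not called with limma voom, Rsph4a under the block with all 12 libraries, Cfap44 in the fit of all 12 libraries or with limma voom, and Dnah5 in the fit of all 12 libraries or under the replicate block (edgeR adjusted p = 0.104).

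**Figure D4:**
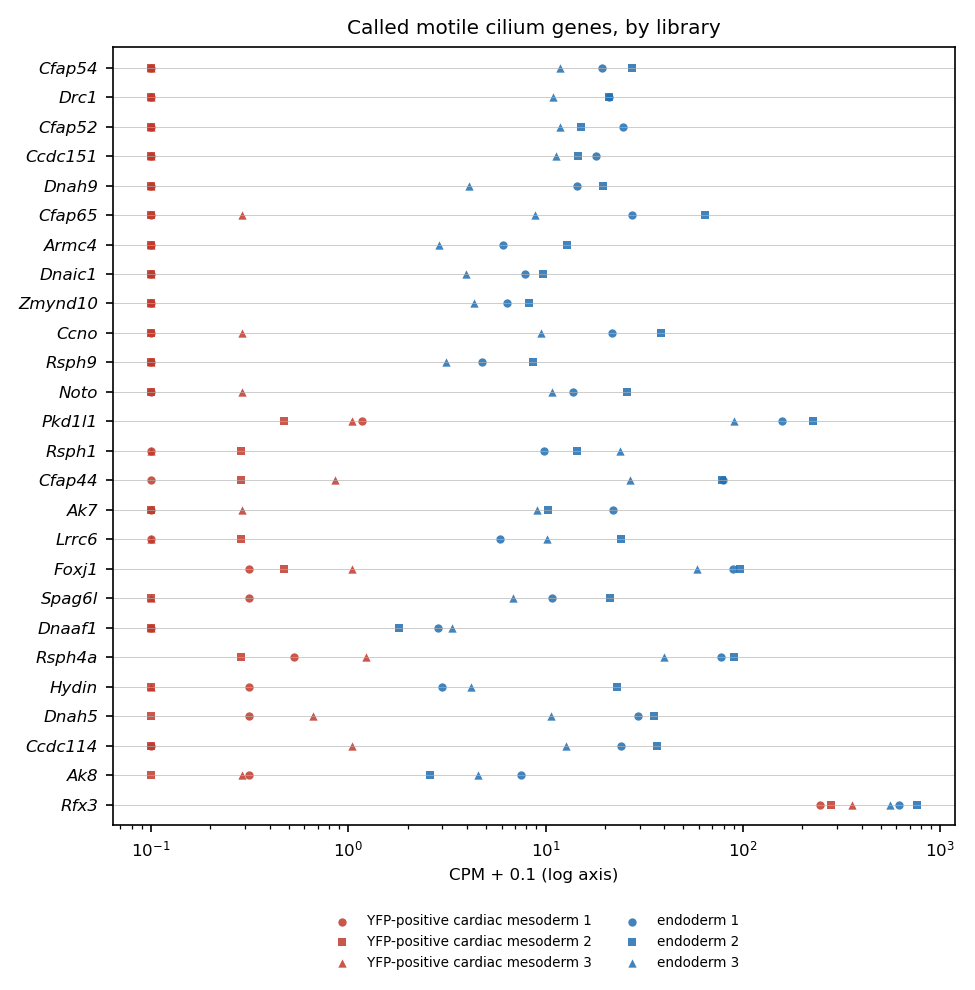
CPM plus 0.1 (log axis) of the 26 motile cilium and axoneme genes called lower in YFP-positive cardiac mesoderm (red) than in endoderm (blue), in each of the 6 libraries, with the shapes marking replicates 1, 2 and 3. Except for Rfx3 at the bottom, the YFP-positive libraries lie at or near the left edge, which stands for 0 counts.

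The receptors and ligands of the VEGF, PDGF and Kit systems separated the populations in both directions. Of 20 tested genes among 27 listed, 6 were higher and 4 lower (3 and 2, then 3 and 3, then 2 and 1). The receptor genes Pdgfra, Kit and Kdr lie in this order on chromosome 5 of GRCm38, at 75152292 to 75198215 (plus strand), 75574916 to 75656722 (plus strand) and 75932827 to 75978458 (minus strand), and encode related receptor tyrosine kinases. Kdr, the VEGF receptor of early mesoderm, measured 537, 639 and 484 CPM against 10.2, 4.85 and 16.6 CPM in endoderm (log2 fold change 5.71 ± 0.43 (SE), edgeR adjusted p = 0.00105). Pdgfra, the PDGF receptor of cardiac and paraxial mesoderm, measured 354, 382 and 368 CPM against 16.4, 8.13 and 17.5 CPM in endoderm (log2 fold change 4.71 ± 0.32 (SE), edgeR adjusted p = 0.000588). KDR and PDGFRA are commonly used to sort such mesoderm, and the labels do not say whether these cells were sorted on either. Kdr and Pdgfra are the 2 higher members that were called in every fit without 1 library. Kit, between them, moved the other way and measured 0.857, 0.562 and 4.9 CPM against 132, 149 and 158 CPM in endoderm (log2 fold change -6.09 ± 0.78 (SE), edgeR adjusted p = 0.00703). Its ligand Kitl was lower too, at 12.4, 9.36 and 9.61 CPM against 218, 93.6 and 122 CPM in endoderm (log2 fold change -3.79 ± 0.43 (SE), edgeR adjusted p = 0.00472), with endoderm replicate 1 the highest. Vegfc, a ligand of lymphatic and early vessels, measured 47.1, 12.9 and 27.1 CPM against 0.484, 0.525 and 0.482 CPM in endoderm (58.5-fold higher, edgeR adjusted p = 0.016). Nrp1, a coreceptor of VEGF and semaphorins, measured 231, 287 and 135 CPM against 84.2, 79.9 and 74.95 CPM in endoderm (2.73-fold higher, edgeR adjusted p = 0.0296). Cxcl12, a chemokine, had 0, 0 and 2 counts in the YFP-positive libraries and 41.9, 28.3 and 53.02 CPM in endoderm, and was lower by a ratio of 315 (95% counting interval 87.1 to 2599) (edgeR adjusted p = 0.0131). Its receptor Cxcr4 was higher, at 106, 99.6 and 166 CPM against 39.3, 38.04 and 50.7 CPM in endoderm (2.9-fold higher, edgeR adjusted p = 0.0311), and was picked beside it after its values were seen. Kit lost its call without endoderm replicate 3, Vegfc and Cxcl12 without each of the endoderm replicates in turn, Nrp1 without each of the endoderm replicates in turn or YFP-positive replicate 1 or 2, and Cxcr4 without each of the endoderm replicates in turn or YFP-positive replicate 3 (edgeR adjusted p up to 0.0513, 0.123, 0.106, 0.132 and 0.132, in that order). Kitl was not called with limma voom, Vegfc and Cxcr4 in the fit of all 12 libraries or under the replicate block (edgeR adjusted p = 0.0659 and 0.0766), Nrp1 under the replicate block (edgeR adjusted p = 0.0523), and Cxcl12 in the fit of all 12 libraries.

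FGF pathway genes differed in both directions, with 3 of 26 tested (33 listed) higher and 5 lower (3 and 1, then 2 and 4, then 0 and 0). The ligands Fgf3 and Fgf10 and the receptor Fgfr1 were higher. Fgf3 measured 53.3, 161 and 109 CPM against 4.19, 2.89 and 1.21 CPM in endoderm (log2 fold change 5.29 ± 0.68 (SE), edgeR adjusted p = 0.00703). Fgf10, a ligand of cardiac progenitors, measured 128, 71.5 and 157 CPM against 29.02, 12.9 and 23.6 CPM in endoderm (log2 fold change 2.44 ± 0.46 (SE), edgeR adjusted p = 0.0251). Fgfr1 measured 390.1, 256 and 257 CPM against 109, 143 and 158 CPM in endoderm (log2 fold change 1.14 ± 0.23 (SE), edgeR adjusted p = 0.0305). Dusp4 and Spry1, feedback inhibitors that FGF signals switch on, were among the 5 that were lower. Dusp4, a phosphatase of MAP kinases, measured 2.78, 4.31 and 6.22 CPM against 109, 70.8 and 70.6 CPM in endoderm (18.8-fold lower, edgeR adjusted p = 0.00646). Spry1, a Sprouty protein, measured 0.214, 0.187 and 0.565 CPM against 28.2, 14.4 and 40.2 CPM in endoderm (85.8-fold lower, edgeR adjusted p = 0.016). Fgf5, the FGF of epiblast, measured 105, 73.4 and 149 CPM against 301, 251 and 286 CPM in endoderm (log2 fold change -1.35 ± 0.26 (SE), edgeR adjusted p = 0.029). Fgf3 lost its call without endoderm replicate 2, Fgf10, Fgfr1 and Spry1 without each of the endoderm replicates in turn, Dusp4 without endoderm replicate 1 or 3, and Fgf5 without each of the endoderm replicates in turn or YFP-positive replicate 1 (edgeR adjusted p up to 0.0518, 0.123, 0.132, 0.123, 0.0811 and 0.132, in that order). Fgfr1 was not called under the replicate block (edgeR adjusted p = 0.0829), and Spry1 and Fgf5 in the fit of all 12 libraries.

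In the Wnt pathway 5 of 47 tested genes (61 listed) were higher and 6 lower (3 and 1, then 4 and 2, then 0 and 1). Among ligands, Wnt5a, which directs cell movement without beta-catenin, measured 87.4, 241 and 174 CPM against 24.99, 10.2 and 7.23 CPM in endoderm (log2 fold change 3.57 ± 0.59 (SE), edgeR adjusted p = 0.0177), while Wnt8a had no count in the YFP-positive libraries and 15.6, 19.1 and 27.1 CPM in endoderm (at least 34.99-fold lower, edgeR adjusted p = 0.0205). Wls, which carries Wnt proteins to the cell surface, measured 202, 147 and 157 CPM against 54.3, 48.3 and 22.4 CPM in endoderm (log2 fold change 2.02 ± 0.37 (SE), edgeR adjusted p = 0.0237). Rspo3, a ligand that strengthens Wnt signals, measured 205, 173 and 149.8 CPM against 54.7, 74.4 and 37.96 CPM in endoderm (log2 fold change 1.66 ± 0.30 (SE), edgeR adjusted p = 0.0236). Frizzled receptors were divided, since Fzd7 was higher, at 458, 361 and 414 CPM against 261, 266 and 265 CPM in endoderm (log2 fold change 0.64 ± 0.13 (SE), edgeR adjusted p = 0.0305), and Fzd5 lower. The secreted inhibitor Sfrp5 had no count in the YFP-positive libraries and 17.4, 13.9 and 25.3 CPM in endoderm (at least 32.01-fold lower, edgeR adjusted p = 0.0222). Wnt5a lost its call without endoderm replicate 2 or 3, and Wnt8a, Wls, Rspo3, Fzd7 and Sfrp5 without each of the endoderm replicates in turn (edgeR adjusted p up to 0.113, 0.123, 0.116, 0.13, 0.132 and 0.13, in that order). Wnt5a was not called in the fit of all 12 libraries, and Wnt8a, Fzd7 and Sfrp5 in the fit of all 12 libraries or under the replicate block (edgeR adjusted p = 0.088, 0.0836 and 0.0933).

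BMP and TGF-beta genes had 10 of 43 tested members (55 listed) higher and 5 lower (3 and 3, then 3 and 3, then 1 and 1). BMP-responsive genes were among those that were higher. Msx2, a homeobox target of BMP, measured 107, 159 and 124 CPM against 11.6, 9.84 and 7.47 CPM in endoderm (log2 fold change 3.76 ± 0.37 (SE), edgeR adjusted p = 0.00278). The inhibitory Smads that BMP signals switch on were higher too, Smad7 at 123, 87.4 and 112 CPM against 16.6, 15.1 and 29.3 CPM in endoderm (log2 fold change 2.40 ± 0.40 (SE), edgeR adjusted p = 0.0178) and Smad6 at 33.2, 42.7 and 59.9 CPM against 5.64, 4.2 and 3.49 CPM in endoderm (log2 fold change 3.34 ± 0.62 (SE), edgeR adjusted p = 0.025). Bmp4 itself measured 111, 194 and 96.5 CPM against 9.03, 16.8 and 37.8 CPM in endoderm (log2 fold change 2.65 ± 0.57 (SE), edgeR adjusted p = 0.0321), with replicate 2 the highest, and was picked beside its targets after its values were seen. The lower genes held the inhibitors Chrd, Cer1 and Lefty1 and a pair of TGF-beta receptors. Tgfbr3, the coreceptor betaglycan, measured 62.5, 82.4 and 111 CPM against 254, 308 and 282 CPM in endoderm (log2 fold change -1.72 ± 0.24 (SE), edgeR adjusted p = 0.00968). Tgfbr2 had no count in the YFP-positive libraries and 8.71, 14.2 and 20.97 CPM in endoderm (at least 24.8-fold lower, edgeR adjusted p = 0.0266). Smad7, Smad6, Tgfbr3 and Tgfbr2 lost their calls without each of the endoderm replicates in turn, and Bmp4 without each of the endoderm replicates in turn or YFP-positive replicate 1 or 2 (edgeR adjusted p up to 0.114, 0.132, 0.0723, 0.132 and 0.132, in that order). Msx2 was not called in the fit of all 12 libraries, Smad6 and Bmp4 under the replicate block (edgeR adjusted p = 0.103 and 0.0556), Tgfbr3 under the block with all 12 libraries, and Tgfbr2 in the fit of all 12 libraries or under the replicate block (edgeR adjusted p = 0.11).

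The Hedgehog pathway genes that were called were higher in the YFP-positive cells, with 3 of 14 tested (23 listed) higher and 0 lower (2 and 0, then 2 and 0, then 1 and 0). Ptch1, the receptor and direct target of Hedgehog signals, measured 558, 567 and 424 CPM against 112, 142 and 115 CPM in endoderm (log2 fold change 2.07 ± 0.17 (SE), edgeR adjusted p = 0.0013), and was called in all 15 alternatives. Foxf1, a forkhead target in lateral mesoderm, measured 159, 165 and 57.3 CPM against 2.42, 0.131 and 0.603 CPM in endoderm (log2 fold change 6.95 ± 0.96 (SE), edgeR adjusted p = 0.00941), with replicate 3 the lowest YFP-positive library. Gas1, a Hedgehog coreceptor, measured 131, 30.9 and 71.97 CPM against 12.3, 19.3 and 9.04 CPM in endoderm (log2 fold change 2.53 ± 0.63 (SE), edgeR adjusted p = 0.0491). Of the ligands, Shh had at most 1 count in each YFP-positive library and 11.3, 0.262 and 0.241 CPM in endoderm and was not tested, and Ihh measured 72.8, 0 and 0 CPM against 0.645, 0 and 0.362 CPM in endoderm and was not tested, so that YFP-positive replicate 1 held all of its counts in that group. Shh and Ihh were picked after their values were seen. Foxf1 lost its call without endoderm replicate 3, and Gas1 without each of the endoderm replicates in turn or YFP-positive replicate 1 or 3 (edgeR adjusted p up to 0.0723 and 0.193, in that order). Gas1 was not called in the fit of all 12 libraries, with RLE scaling, without the filter on low counts, under the filter of 5 CPM or under the replicate block (edgeR adjusted p = 0.148).

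The study concerns Notch activation in cardiac commitment, so the Notch pathway was examined as a list. Of 32 tested genes among 40 listed, 1 was higher and 5 lower (1 and 0, then 1 and 0, then 0 and 0), with a median of 0.07. In either direction 18.8% were called, against 8.28% of all genes tested. The 1 higher member is near the share of all genes tested that were higher, 2.62%. Notch1, the receptor that was higher, measured 109, 114 and 130.2 CPM against 28.1, 19.8 and 14.9 CPM in endoderm (log2 fold change 2.49 ± 0.36 (SE), edgeR adjusted p = 0.011). Its relatives Notch2 and Notch3 were not called, Notch2 at 434, 274 and 204 CPM against 266, 273 and 238 CPM in endoderm (edgeR adjusted p = 0.71) and Notch3 at 138, 86.1 and 121 CPM against 45.5, 41.2 and 64.95 CPM in endoderm (edgeR adjusted p = 0.0673). Notch4 had no count in the YFP-positive libraries and 6.61, 10.8 and 8.68 CPM in endoderm (at least 14.7-fold lower, edgeR adjusted p = 0.0292). The groups overlapped in Notch2 and not in Notch3. The ligand Dll1 measured 141, 30.1 and 83.1 CPM against 20.8, 20.1 and 2.17 CPM in endoderm (edgeR adjusted p = 0.142). Dll3 measured 36.6, 32.01 and 52.2 CPM against 2.58, 11.4 and 5.3 CPM in endoderm (edgeR adjusted p = 0.0754). Neither ligand overlapped between the groups, and neither was called. The target Hes1 measured 97.9, 60.3 and 77.2 CPM against 79.01, 58.9 and 74.1 CPM in endoderm (edgeR adjusted p = 0.858). Hey1 measured 48.2, 47.5 and 20.3 CPM against 28.2, 20.3 and 15.9 CPM in endoderm (edgeR adjusted p = 0.493). The other lower genes were Hes7, a target of the segmentation clock, the fringe enzyme Mfng and the modulators Dtx1 and Dtx4, all at 1 count or fewer per YFP-positive library. The receptors other than Notch1, the ligands and the targets were named for their role after their values were seen. Notch1 lost its call without endoderm replicate 2 or 3, Notch4, Hes7, Dtx1 and Dtx4 without each of the endoderm replicates in turn, and Mfng without each of the endoderm replicates in turn or YFP-positive replicate 1 or 3 (edgeR adjusted p up to 0.0775, 0.132, 0.132, 0.132, 0.132 and 0.133, in that order). Notch4 was not called in the fit of all 12 libraries, under the filter of 5 CPM or under the replicate block (edgeR adjusted p = 0.132), Hes7 and Dtx4 in the fit of all 12 libraries or under the replicate block (edgeR adjusted p = 0.11 and 0.0808), Mfng in the fit of all 12 libraries, without the filter on low counts or under the replicate block (edgeR adjusted p = 0.13), and Dtx1 in the fit of all 12 libraries, without the filter on low counts, under the filter of 5 CPM or under the replicate block (edgeR adjusted p = 0.142).

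Retinoic acid genes had 1 of 19 tested (25 listed) higher and 3 lower (0 and 0, then 0 and 0, then 0 and 0). Stra6, the receptor for retinol uptake, measured 109.8, 93.2 and 97.2 CPM against 40.2, 33.8 and 21.7 CPM in endoderm (log2 fold change 1.65 ± 0.35 (SE), edgeR adjusted p = 0.0317), whereas Rbp4, the retinol carrier of plasma, was lower at 0, 0 and 0.377 CPM against 66.3, 17.7 and 24.3 CPM in endoderm (lower by a ratio of 277 (95% counting interval 76.6 to 2284), edgeR adjusted p = 0.0208). Receptor and carrier were thus each higher in a different population. Stra6 lost its call without each of the endoderm replicates in turn or YFP-positive replicate 1, and Rbp4 without each of the endoderm replicates in turn (edgeR adjusted p up to 0.132 and 0.132, in that order). Stra6 and Rbp4 were not called in the fit of all 12 libraries or under the replicate block (edgeR adjusted p = 0.0967 and 0.0504).

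Guidance genes had 5 of 45 tested members (54 listed) higher and 6 lower (3 and 0, then 3 and 1, then 3 and 0). Among the higher genes, beside Unc5c, Robo1, a receptor of Slit proteins, measured 681, 518 and 616 CPM against 208, 186 and 156 CPM in endoderm (log2 fold change 1.72 ± 0.16 (SE), edgeR adjusted p = 0.00228). Plxna4, a semaphorin receptor, measured 115, 118 and 187 CPM against 13.5, 20.5 and 18.1 CPM in endoderm (log2 fold change 3.01 ± 0.36 (SE), edgeR adjusted p = 0.00524). These 3 receptors were called in all 15 alternatives. Slit2, a ligand of Robo1, was lower, at 52.7, 42.7 and 20.3 CPM against 129, 160.3 and 126 CPM in endoderm (log2 fold change -1.84 ± 0.39 (SE), edgeR adjusted p = 0.0311), and so was the ephrin receptor Epha2 at 0.214, 13.1 and 7.54 CPM against 139, 148 and 131 CPM in endoderm (20.1-fold lower, edgeR adjusted p = 0.033). Slit2 lost its call without each of the endoderm replicates in turn or YFP-positive replicate 2, and Epha2 without each of the endoderm replicates in turn or YFP-positive replicate 3 (edgeR adjusted p up to 0.132 and 0.132, in that order). Slit2 and Epha2 were not called in the fit of all 12 libraries or under the replicate block (edgeR adjusted p = 0.0541 and 0.0517).

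Cell cycle and replication genes were called in 1 direction only. Of 58 tested (all of those listed), 5 were higher and 0 lower (1 and 0, then 2 and 0, then 1 and 0), with a median of 0.28. In either direction 8.62% were called, against 8.28% of all genes tested, of which 2.62% were higher and 5.66% lower. The log2 fold change was positive for 44 members and negative for 14. The members summed to 11178, 11196 and 11521 CPM against 8538, 8736 and 8588 CPM in endoderm. Ccnd2, a D-type cyclin, measured 569, 619 and 537 CPM against 87.6, 117 and 83.1 CPM in endoderm (log2 fold change 2.58 ± 0.17 (SE), edgeR adjusted p = 0.000588), and was called in all 15 alternatives. Its relative Ccnd1 measured 358, 375 and 433 CPM against 177, 208 and 163 CPM in endoderm (log2 fold change 1.09 ± 0.15 (SE), edgeR adjusted p = 0.0101). In the Hippo pathway 3 of 30 tested genes (35 listed) were higher and 2 lower (2 and 0, then 1 and 0, then 1 and 0). Tead1, a DNA-binding partner of YAP, measured 1057, 882 and 751 CPM against 409, 397 and 394 CPM in endoderm (log2 fold change 1.16 ± 0.14 (SE), edgeR adjusted p = 0.0052). Glycolysis genes had 1 of 30 tested (36 listed) higher and 2 lower (0 and 1, then 0 and 1, then 0 and 1), and the cholesterol and fatty acid list had 1 of 47 (54 listed) higher and 2 lower (0 and 1, then 0 and 0, then 0 and 0). Of the latter, Slc27a2, a fatty acid transporter and acyl-CoA synthetase of visceral endoderm and liver, had no count in the YFP-positive libraries and 33.2, 41.97 and 25.7 CPM in endoderm (at least 57.01-fold lower, edgeR adjusted p = 0.0129). Ccnd1 lost its call without endoderm replicate 1 or 3, and Slc27a2 without each of the endoderm replicates in turn (edgeR adjusted p up to 0.0783 and 0.107, in that order). Ccnd1 was not called in the fit of all 12 libraries, and Slc27a2 under the replicate block (edgeR adjusted p = 0.055).

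Most genes of contractile muscle were too low in both populations to be tested. Of 34 listed sarcomere and cardiac muscle genes 14 were tested, of which 1 was higher and 1 lower (1 and 0, then 1 and 0, then 0 and 0). Myl7, the atrial myosin light chain that is among the first muscle genes of the heart, measured 148, 38.4 and 114 CPM against 3.39, 1.84 and 3.01 CPM in endoderm (log2 fold change 5.18 ± 0.66 (SE), edgeR adjusted p = 0.0068), with replicate 2 the lowest. Tnni3, cardiac troponin I, had no count in the YFP-positive libraries and 9.997, 7.48 and 16.3 CPM in endoderm (at least 19.1-fold lower, edgeR adjusted p = 0.0292). Tnnt2, the troponin T that marks differentiated heart muscle, had no count in the YFP-positive libraries either, and was picked after its values were seen. Of 37 Hox genes found, Hoxb1 alone was tested, at 44.3, 1.31 and 26.9 CPM against 3.55, 4.07 and 0 CPM in endoderm (edgeR adjusted p = 0.334). Myl7 and Tnni3 lost their calls without each of the endoderm replicates in turn (edgeR adjusted p up to 0.0548 and 0.132, in that order). Tnni3 was not called in the fit of all 12 libraries or under the replicate block (edgeR adjusted p = 0.124).

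Of the pluripotency and epigenetic regulators, 26 of 34 listed were tested, with 1 higher and 5 lower (0 and 2, then 0 and 2, then 0 and 1). L1td1, an RNA-binding protein of pluripotent cells, measured 25.9, 22.6 and 46.2 CPM against 291, 368 and 402 CPM in endoderm (log2 fold change -3.48 ± 0.31 (SE), edgeR adjusted p = 0.00195). Dnmt3b, the DNA methyltransferase of epiblast, measured 390.1, 468 and 409.8 CPM against 822, 755 and 737 CPM in endoderm (log2 fold change -0.87 ± 0.11 (SE), edgeR adjusted p = 0.00712). Sox2, a factor of epiblast and neural ectoderm, had no count in the YFP-positive libraries and 8.06, 8.39 and 16.7 CPM in endoderm (at least 18.8-fold lower, edgeR adjusted p = 0.0293). Epiblast markers moved with these genes, with 6 of 14 tested lower and 1 higher, and 9 of the 15 markers are in both lists. Whether the endoderm libraries held epiblast cells, and what part such cells had in the result, was not tested. Tdgf1 was the member that was higher. Dnmt3b lost its call without endoderm replicate 1 or 2, and Sox2 without each of the endoderm replicates in turn (edgeR adjusted p up to 0.0555 and 0.132, in that order). Sox2 was not called in the fit of all 12 libraries or under the replicate block (edgeR adjusted p = 0.124).

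Imprinted genes, of which 28 of 34 listed were tested, had 4 higher and 3 lower (2 and 1, then 3 and 3, then 1 and 1). Phlda2, an imprinted gene that restrains placental growth and is expressed from the maternal copy, measured 169, 165 and 144 CPM against 3.55, 3.28 and 4.94 CPM in endoderm (log2 fold change 5.34 ± 0.34 (SE), edgeR adjusted p = 0.000588). Peg3, Peg10 and Mest, which are expressed from the paternal copy, were higher by smaller amounts, with log2 fold changes of 0.55 ± 0.11 (SE), 0.94 ± 0.19 (SE) and 0.87 ± 0.18 (SE). The noncoding RNAs Meg3 and Rian, expressed from the maternal copy of a shared cluster, were both lower, Meg3 at 244, 422 and 548 CPM against 1149, 911 and 1016 CPM in endoderm (log2 fold change -1.34 ± 0.26 (SE), edgeR adjusted p = 0.0292) and Rian at 430.4, 321 and 351 CPM against 1022, 703 and 763 CPM in endoderm (log2 fold change -1.17 ± 0.18 (SE), edgeR adjusted p = 0.0128). Ppp1r9a, the neurabin gene near Peg10, was lower as well, at 56.7, 29.4 and 32.6 CPM against 299, 286 and 269 CPM in endoderm (log2 fold change -2.85 ± 0.29 (SE), edgeR adjusted p = 0.0031). Peg3 lost its call without endoderm replicate 2 or 3 or YFP-positive replicate 2, Peg10 without endoderm replicate 2 or 3 or YFP-positive replicate 1 or 2, Mest without each of the endoderm replicates in turn or YFP-positive replicate 1 or 2, Meg3 without each of the endoderm replicates in turn or YFP-positive replicate 2, and Rian without endoderm replicate 1 or 3 (edgeR adjusted p up to 0.123, 0.123, 0.132, 0.132 and 0.0583, in that order). Peg3, Peg10 and Meg3 were not called in the fit of all 12 libraries, Mest under the replicate block (edgeR adjusted p = 0.0531), and Rian in the fit of all 12 libraries or with limma voom.

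Markers of blood and vessel precursors were uneven among the YFP-positive libraries. Of 4 tested primitive blood markers (12 listed), 1 was higher and 1 lower, with a median log2 fold change of -0.31. Of 7 tested endothelial markers (14 listed), 2 were higher and 0 lower. Tal1, the factor that founds the blood lineage, was higher in the YFP-positive cells through replicate 2 above all, and measured 14.1, 179 and 22.4 CPM against 0.806, 0.656 and 3.13 CPM in endoderm (46.9-fold higher, edgeR adjusted p = 0.0366). Etv2, the ETS factor that starts the vessel and blood program, was highest in replicate 3 and measured 6.21, 29.6 and 68.8 CPM against 1.13, 0.262 and 0.723 CPM in endoderm (49.5-fold higher, edgeR adjusted p = 0.0313). Pecam1, the vessel surface protein, picked after its values were seen, was not called and was also highest in replicate 2, at 0, 60.5 and 4.33 CPM against 2.58, 2.1 and 1.33 CPM in endoderm (edgeR adjusted p = 0.349). Tal1 lost its call without each of the endoderm replicates in turn or YFP-positive replicate 2, and Etv2 without each of the endoderm replicates in turn or YFP-positive replicate 3 (edgeR adjusted p up to 0.147 and 0.132, in that order). Tal1 and Etv2 were not called under the replicate block (edgeR adjusted p = 0.103 and 0.119).

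**Figure D5:**
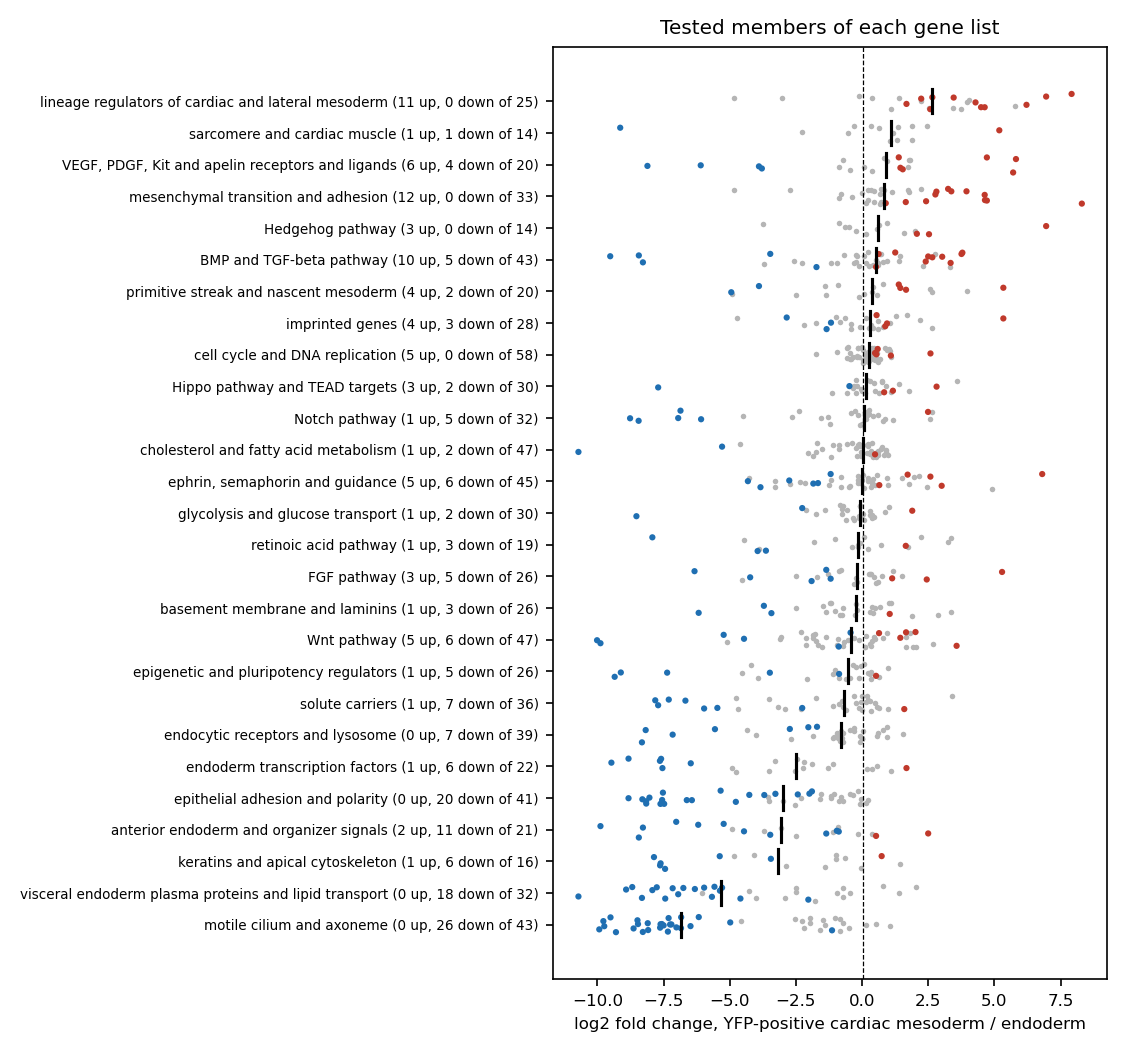
Log2 fold change (YFP-positive cardiac mesoderm over endoderm) of each tested member of 27 gene lists, 1 point per gene, with genes called higher in red, called lower in blue and not called in grey, and a black bar at the median of each list. The labels give how many tested members were higher and lower, and the dashed line marks the median of all genes tested (0.04). The cardiac and lateral mesoderm list lies to the right of the line, and the epithelial, visceral endoderm and motile cilium lists to the left.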

How the data were processed

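RNA of 12 libraries from sorted E7.25 mouse cells was sequenced, and the 3 YFP-positive cardiac mesoderm and 3 endoderm libraries were compared. The deposited values are raw counts of reads per gene for 38924 Ensembl genes, whole numbers that the authors had not normalized. STAR 2.5.0a, Picard, HTSeq 0.6.0, DESeq2 and the build mm10 are named, with no role, per the submitters' processing notes. The annotation and strand setting are not given in the sources used here, so counts of overlapping or antisense genes are uncertain, as are those of near-identical copies. Summary rows that name no gene were removed; gene counts were 18.3% to 21.5% of all tallied reads. Symbols were found for 37607 genes, and coordinates come from GENCODE M21 on GRCm38.

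Genes were tested with edgeR 4.0.16 in R 4.3.3 (two-sided quasi-likelihood test, TMM scaling, filterByExpr, Benjamini-Hochberg adjustment over 12845 genes, adjusted p under 0.05). CPM and summed markers were computed from the counts. A fold against a group with no count was set against 3 counts per library, or 0.362 to 0.642 CPM, and 1 to 3 counts were given a 95% Poisson interval; both cover counting error only. The alternatives were a fit of all 12 libraries, RLE scaling, no filter, a minimum of 5 CPM, DESeq2 1.42.0, limma voom 3.58.1 with quality weights, the replicate number as a block, the block with all 12 libraries, libraries thinned to 1 shared total, and fits without 1 library.

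Same-numbered libraries of all 4 cell types carry the same date in their deposited names, although what the date marks is not stated. On that ground the replicate number served as a block in alternative fits, while the main fit did not pair the libraries. The deviations of same-numbered libraries from their group means had correlations of 0.03, -0.02 and 0.01 across genes. By these deviations, YFP-positive replicates 1, 2 and 3 correlated best with endoderm replicates 1, 3 and 2, in that order. Within each group, no 2 libraries agreed within sampling noise, and libraries of different groups were not compared in this way. In data simulated for this comparison, with 50 genes changed at each size, edgeR called 8%, 48%, 60% and 70% of genes changed 2-, 4-, 8- and 16-fold, and 0.0668% of 11976 unchanged genes. The simulation gave each gene the same spread in both groups. The measured coefficient of variation was 0.812 among the YFP-positive libraries and 0.404 among the endoderm libraries. How often unchanged genes are called under such unequal spread was not tested. Only genes above a minimum level were changed, so recovery of rarer genes was not measured.

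The comparison, the 28 gene lists, the 11 marker lists and the naming rule were chosen with earlier results of these data known. The rule names up to 12 genes in each direction with the largest fold among those called in the fit of 6 libraries, in that of all 12 and in each fit without 1 library, and up to 4 called members of each list and direction by lowest p, all with at least 10 CPM in the higher group, no overlap between groups for the first, and no predicted genes. Foxa2, Epcam, Kdr and Pdgfra were always named. Genes outside it are identified where they appear, and a few that it selects are not reported here.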

Additional observations from a re-analysis of the deposited data

How the results depend on the processing

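The count of 1063 called genes (336 higher, 727 lower in YFP-positive cardiac mesoderm) was within 1.5 times of the counts with RLE scaling, limma voom and thinned libraries. It was 218 (135 higher, 83 lower) in the fit of all 12 libraries, 694 with 435 lower without a filter, 656 with 397 lower at a minimum of 5 CPM, and 2472 (1004 higher, 1468 lower) with DESeq2. Under the replicate block it was 318 (146 higher, 172 lower), and 178 (115 higher, 63 lower) under the replicate block with all 12 libraries. Leaving out 1 library gave 99 to 985 genes, 62 to 332 of them higher and 35 to 664 lower, and the low ends were the fits without an endoderm library. The cause was not tested. The share of calls that were higher was 31.6% in the fit of 6 libraries, 45.9% under the replicate block, 64.6% under the block with all 12 libraries, 61.9% with all 12 libraries and 55.5% to 64.6% without an endoderm library. The median log2 fold change of all genes tested was 0.04, and it was -0.31 without a filter, -0.20 with limma voom, -0.19 under the block and -0.13 under the block with all 12 libraries. Among the named genes, the log2 fold changes of 2 that were not called changed sign without YFP-positive replicate 1, over a range of -0.044 to 0.30 for Hes1 and -0.12 to 0.44 for Notch2 when 1 library was left out. Depth limited genes near 3 counts per library, and the simulated recovery of 8% at 2-fold limits what the absence of a call can show.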

Other observations

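Of the 69 genes called in the fits of 6 and of 12 libraries and in each fit that left out a library, several belong to none of the gene lists and were picked here after their values were seen. Fbn2, a fibrillin of extracellular microfibrils, measured 329, 373 and 223 CPM against 53.4, 68.7 and 55.6 CPM in endoderm (log2 fold change 2.38 ± 0.24 (SE), edgeR adjusted p = 0.00312). Igfbp4, which binds IGF and is also known as a secreted Wnt inhibitor, measured 281, 271 and 163 CPM against 34.8, 29.9 and 40.97 CPM in endoderm (log2 fold change 2.76 ± 0.28 (SE), edgeR adjusted p = 0.00327). Hmga2, a chromatin protein of embryonic cells, measured 1054, 953 and 988 CPM against 442, 448 and 372 CPM in endoderm (log2 fold change 1.25 ± 0.11 (SE), edgeR adjusted p = 0.00188). Pbx3, a homeobox cofactor of Meis and Hox proteins, measured 320.3, 315 and 357 CPM against 106, 143 and 130.1 CPM in endoderm (log2 fold change 1.39 ± 0.17 (SE), edgeR adjusted p = 0.0055). Toward endoderm, Myo6, a myosin of endocytic vesicles and microvilli, measured 2.78, 2.99 and 7.72 CPM against 334, 129.7 and 229.6 CPM in endoderm (log2 fold change -5.67 ± 0.57 (SE), edgeR adjusted p = 0.00299), and Kif21a, a kinesin that steadies microtubules, measured 52.03, 41.7 and 76.1 CPM against 291, 288 and 275 CPM in endoderm (log2 fold change -2.33 ± 0.25 (SE), edgeR adjusted p = 0.00381). Nrk, a protein kinase of placenta, measured 17.1, 25.8 and 9.8 CPM against 531, 134 and 257 CPM in endoderm (log2 fold change -4.13 ± 0.58 (SE), edgeR adjusted p = 0.0102). Myo6 and Nrk were not called with limma voom.

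Gene families were also scanned by symbol stem, over the 139 stems with at least 10 genes tested, without a test. Cadherins had the largest share of calls, 5 of 10 tested, against 8.28% of all genes tested. Cdh1 and Cdh3 (P-cadherin) were lower in YFP-positive cardiac mesoderm, and Cdh2, Cdh11 and Cdh8 higher. Cdh3 measured 0.214, 0 and 0.188 CPM against 28.9, 25.2 and 21.3 CPM in endoderm (lower by a ratio of 192 (95% counting interval 53.3 to 1589), edgeR adjusted p = 0.0143), and Cdh8 measured 12.2, 40.8 and 15.4 CPM against 0.322, 0.393 and 0.362 CPM in endoderm (63.5-fold higher, edgeR adjusted p = 0.0197). In the fit of all 12 libraries 1 cadherin was higher and 0 lower, and under the replicate block 2 were higher and 1 lower. Cdh3 and Cdh8 lost their calls without each of the endoderm replicates in turn (edgeR adjusted p up to 0.104 and 0.132, in that order). Cdh3 and Cdh8 were not called in the fit of all 12 libraries or under the replicate block (edgeR adjusted p = 0.0534 and 0.0763). Next were the cilia and flagella associated proteins (Cfap), with 7 of 19 lower (0 in the fit of all 12 libraries, 1 under the block), the Sox factors, with 1 of 13 higher and 3 lower (0 and 0 in both), and the tetraspanins (Tspan), with 4 of 14 lower (0, then 1). For 49 of the 139 stems no gene was called.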
